A study of Sus scrofa with 6 samples.

Results

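The circRNAs of SETD2, the host gene of a histone H3 lysine 36 methyltransferase, are described here in boar testis. Every circRNA whose host is listed as SETD2 was taken, which gave 22 of the 4350 circRNAs of the deposited table, with 1617 back-splice reads in all. The host was chosen by measured values of these same libraries, namely the back-splice counts of its circRNAs in the comparison of adult with young testis, of which several were higher in adult testis. Levels and fold changes between the ages are therefore given as a description, and nothing is supported by them.

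Testis RNA of Landrace boars was depleted of ribosomal RNA and of linear RNA (by RNase R) and sequenced as 1 library per boar, to compare testis before and after sexual maturity. The Young_D30 group holds 3 piglets aged 30 days, and the Adult_D210 group holds 3 sexually mature boars aged 210 days. No boar carried a treatment or a genetic change that the labels name. A back-splice read spans the junction at which a splice donor is joined to an acceptor upstream of it, so each read counts 1 junction whatever the length of the circle.

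The table holds 33091, 18445 and 18618 back-splice reads in Young_D30 replicates 1 to 3, and 23583, 14305 and 12701 in Adult_D210 replicates 1 to 3. Mapped reads per library were 37364412, 43625471 and 43424224 in Young_D30 and 49179118, 40452590 and 48801540 in Adult_D210. Young_D30 replicate 1 stood apart with 886 back-splice reads per 1000000 mapped reads, against 260 to 480 in the other libraries. All 2552 exonic circRNAs of the table have at least 1 read in that library, so a SETD2 circRNA absent from it would not be listed here. The calls and the SETD2 total after TMM, isoform usage and the share of circRNA10824 are given with and without it. Values and fits per mapped read, shares by acceptor or donor and the likeness of hosts are given with it only.

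SETD2 binds elongating RNA polymerase II and places the trimethyl mark on lysine 36 of histone H3 in the bodies of transcribed genes. That mark is read by proteins that act in splicing, DNA methylation and mismatch repair. In mice, germ cells without Setd2 fail to complete the shaping of spermatids. Exonic circRNAs come from the same primary transcript as the mRNA of their host, and the amount of linear SETD2 mRNA was not analysed here.

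All 22 circRNAs were exonic, lay on the minus strand of chromosome 13 between positions 33146950 and 33222430, and were assigned to a single transcript. Coordinates are those of the deposited table, counted from 1, on Sscrofa10.2 as the submitters' processing notes name it. The circRNAs held 1 to 12 exons with a median of 3, and spanned 670 to 35553 nt of genome with introns included. They used 9 acceptors and 11 donors, so most ends were shared. SETD2 ranked 7 among the 1861 hosts by its number of circRNAs and 12 by its reads.

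**Figure D1:**
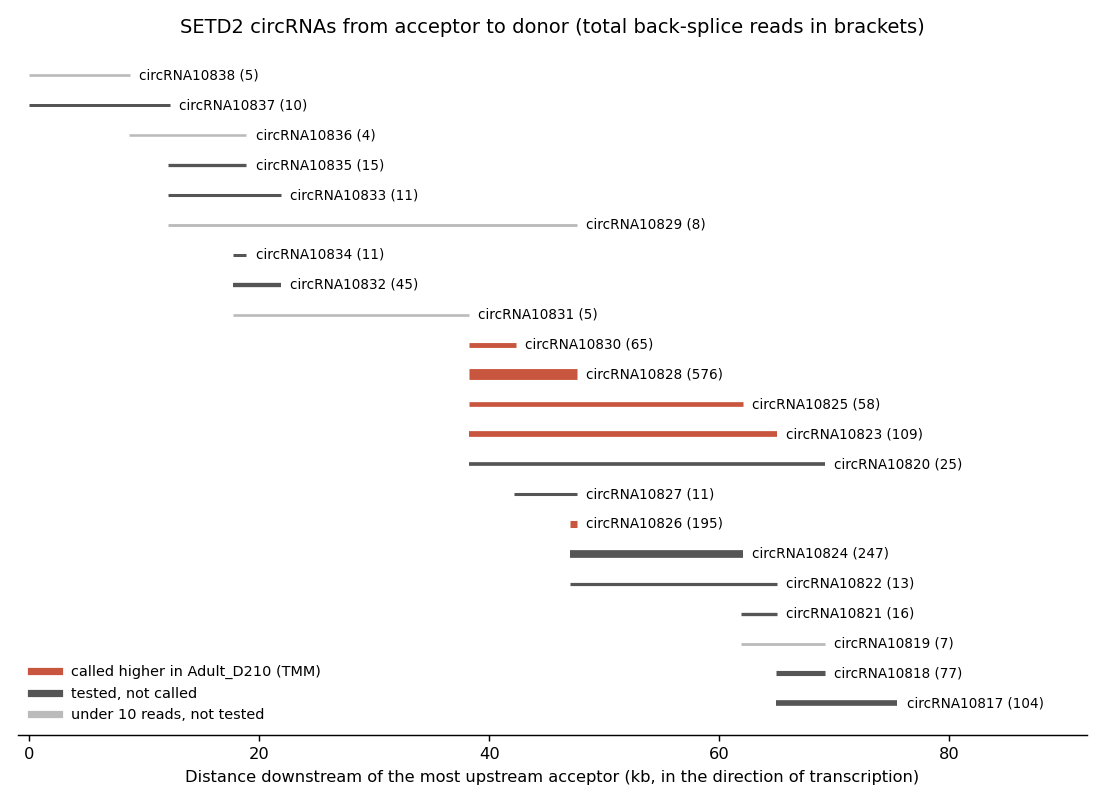
Map of the 22 SETD2 circRNAs, each drawn from its acceptor to its donor, with the distance in kb downstream of the most upstream acceptor on the x axis, line width growing with total reads, and red for the 5 called higher in Adult_D210. Of the red lines, 4 begin together at the acceptor of a 49 nt exon, and the short one is circRNA10826, a single exon.

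The structure could be rebuilt from the circle ends and the flanking introns for 13 circRNAs, which are made of 7 consecutive exons of 49, 184, 670, 135, 140, 112 and 81 nt in the direction of transcription. The circRNA with the most reads, circRNA10828 (33174778 to 33184216), joins the 670 nt exon back to the 49 nt exon and has 3 exons and a spliced length of 903 nt. It is flanked by introns of 16314 nt upstream and 14249 nt downstream. The longest upstream and the longest downstream intron beside any SETD2 circRNA are the same 16314 nt intron, which only circRNA10829 and circRNA10831 span. Of the 1617 reads, 833 joined the acceptor of the 49 nt exon, in 5 circRNAs, and 455 the acceptor of the 670 nt exon, in 3 circRNAs.

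Among the circles that start at the 49 nt exon, circRNA10828 had 86, 61 and 46 reads in the Young_D30 libraries and 198, 104 and 81 in the Adult_D210 libraries. Per mapped read this was 10.6 ± 4.28 SRPBM (SD, n = 3) in Young_D30 and 18.3 ± 7.96 (SD, n = 3) in Adult_D210, where SRPBM is the count scaled by mapped reads and read length. The groups overlapped, because Young_D30 replicate 1 (15.3 SRPBM) lay above Adult_D210 replicate 3 (11.1 SRPBM). It ranked 26 by reads among all circRNAs of the table.

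The longer circle circRNA10823 (33157395 to 33184216, 5 exons, 1178 nt spliced) had 11, 4 and 8 reads in Young_D30 and 38, 30 and 18 in Adult_D210. Each adult library lay above each young library in SRPBM, at 1.27 ± 0.677 (SD, n = 3) in Young_D30 and 4.18 ± 1.50 (SD, n = 3) in Adult_D210. For circRNA10825 (33160394 to 33184216, 4 exons, 1038 nt) the reads were 1, 4 and 4 in Young_D30 and 26, 16 and 7 in Adult_D210. The groups again did not overlap in SRPBM, although Adult_D210 replicate 3 (0.956 SRPBM) was near the young libraries (up to 0.614 SRPBM).

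The shortest circle of known spliced length, circRNA10830 (33180088 to 33184216, 2 exons, 233 nt), had 7, 0 and 4 reads in Young_D30 and 26, 15 and 13 in Adult_D210. All adult libraries were above all young ones in SRPBM. The circle with the most exons from this acceptor, circRNA10820 (33153278 to 33184216, 6 exons, 1290 nt), had 9, 1 and 2 reads in Young_D30 and 10, 3 and 0 in Adult_D210. Its groups overlapped, and in each of them replicate 1 was the highest.

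Among the circles that start at the 670 nt exon, circRNA10824 (33160394 to 33175447, 2 exons, 805 nt) was the one most read after circRNA10828, with 88, 32 and 36 reads in Young_D30 and 51, 26 and 14 in Adult_D210. In SRPBM it was at 8.71 ± 6.07 (SD, n = 3) in Young_D30 and 4.37 ± 2.50 (SD, n = 3) in Adult_D210, with overlap, since Adult_D210 replicate 1 (6.91) lay above Young_D30 replicates 2 (4.89) and 3 (5.53). The single exon alone, circRNA10826 (33174778 to 33175447, 670 nt), had 33, 15 and 14 reads in Young_D30 and 55, 56 and 22 in Adult_D210. These groups overlapped too, through Young_D30 replicate 1.

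Of the circles that share an end with circRNA10826, those most read thus had an opposite order of the group means in SRPBM, circRNA10824 being higher in Young_D30 and circRNA10828, like circRNA10826 itself, in Adult_D210. The remaining circle from this acceptor, circRNA10822 (33157395 to 33175447, 3 exons, 945 nt), had 2, 1 and 2 reads in Young_D30 and 4, 3 and 1 in Adult_D210. At these counts the groups could not be separated.

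Downstream of these exons, circRNA10817 (33146950 to 33157534, 3 exons, 333 nt) had 21, 9 and 10 reads in Young_D30 and 32, 20 and 12 in Adult_D210, and circRNA10818 (33153278 to 33157534, 2 exons, 252 nt) had 14, 4 and 14 against 24, 16 and 5. Both start at the 140 nt exon, and for both the groups overlapped in SRPBM. From the 135 nt exon, circRNA10821 (33157395 to 33160528, 2 exons, 275 nt) had 4, 4 and 3 reads in Young_D30 and 1, 3 and 1 in Adult_D210. From the 184 nt exon, circRNA10827 (33174778 to 33180271, 2 exons, 854 nt) had 3, 0 and 3 reads in Young_D30 and 2, 3 and 0 in Adult_D210. Both of these are too thinly read to show a difference between the ages.

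Upstream of the 16314 nt intron, the circRNA with the most reads was circRNA10832 (33200531 to 33204743, 3 exons), with 7, 0 and 2 reads in Young_D30 and 23, 5 and 8 in Adult_D210. Its groups overlapped in SRPBM, through Young_D30 replicate 1. Its neighbours circRNA10833 (33200531 to 33210330, 4 exons; 3, 1 and 0 against 4, 3 and 0 reads) and circRNA10834 (33203532 to 33204743, 2 exons; 1, 0 and 0 against 6, 0 and 4 reads) overlapped as well. So did circRNA10835 (33203532 to 33210330, 3 exons), with 6, 0 and 2 reads in Young_D30 and 0, 5 and 2 in Adult_D210, and circRNA10837 (33210204 to 33222430, 12 exons), with 1, 4 and 2 in Young_D30 and 3, 0 and 0 in Adult_D210. These are single reads to a few reads per library, and no order can be read from them.

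The other 5 circRNAs had 4 to 8 reads each and 29 in all, 14 of them in Young_D30 replicate 1, and were not tested. They are circRNA10819 (33153278 to 33160528, 3 exons; 4, 0 and 0 reads in Young_D30 and 1, 2 and 0 in Adult_D210), circRNA10829 (33174778 to 33210330, 7 exons; 2, 0 and 0 against 5, 0 and 1) and circRNA10831 (33184168 to 33204743, 4 exons; 4, 0 and 0 against 0, 1 and 0). To these come circRNA10836 (33203532 to 33213734, 8 exons; 1, 0 and 0 against 1, 2 and 0) and circRNA10838 (33213657 to 33222430, 7 exons; 3, 0 and 0 against 2, 0 and 0). In Young_D30 all 5 were seen in replicate 1 alone, the library that every listed exonic circRNA must have a read in, so their absence from the other young libraries cannot be weighed.

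Of the 17 SETD2 circRNAs with at least 10 reads, 9 had a read in each of the 6 libraries. The number of SETD2 circRNAs seen in a library was 22, 12 and 15 in Young_D30 and 20, 18 and 14 in Adult_D210, the 22 being set by how the table was made. Without Young_D30 replicate 1, the library with the fewest SETD2 reads showed the fewest circRNAs and the library with the most reads the most.

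**Figure D2:**
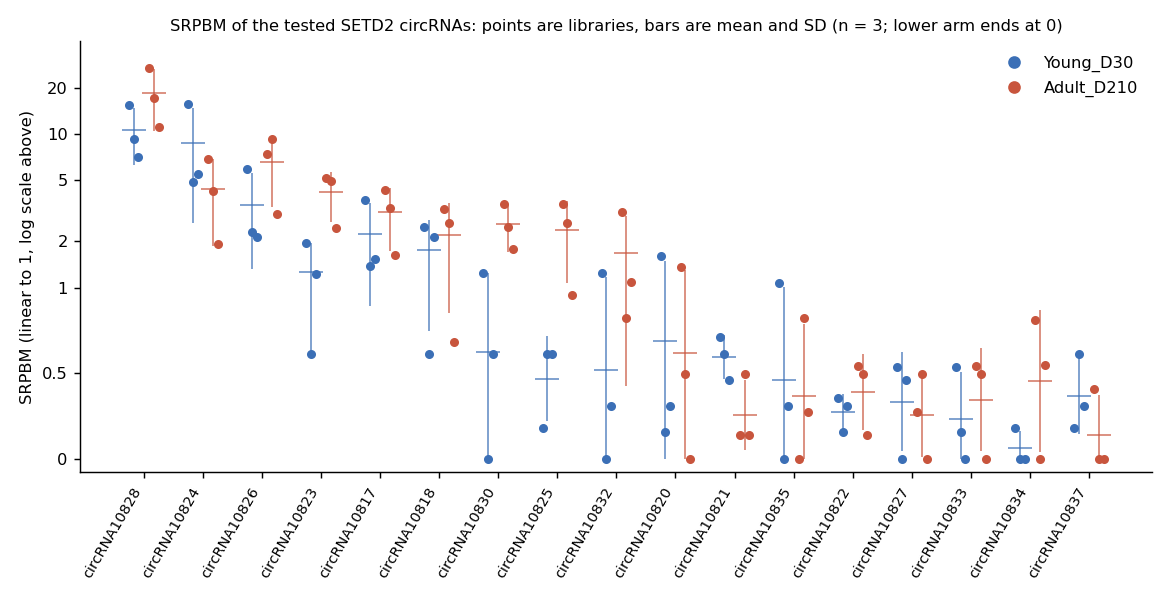
SRPBM (y axis, linear up to 1 and logarithmic above) of the 17 SETD2 circRNAs with at least 10 reads, ordered by reads, with a point per library and bars for mean and SD over n = 3. The groups part without overlap for circRNA10823, circRNA10830 and circRNA10825, and share a range for the others.

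Summed over its circRNAs, SETD2 had 311, 140 and 152 reads in Young_D30 and 512, 313 and 189 in Adult_D210. Per 1000000 mapped reads this was 8.32, 3.21 and 3.50 in Young_D30 and 10.4, 7.74 and 3.87 in Adult_D210, so the groups overlapped, with Young_D30 replicate 1 above 2 of the adult libraries. As a share of all back-splice reads of the table, SETD2 held 0.940%, 0.759% and 0.816% in Young_D30 and 2.17%, 2.19% and 1.49% in Adult_D210. On that scale each adult library was above each young library, at 0.838% ± 0.0924 (SD, n = 3) and 1.95% ± 0.399 (SD, n = 3). How many other hosts part in this way on that scale was not counted, so it is not read as particular to SETD2.

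Both scales have a limit. The back-splice total of the table is not the depth of a library, since the table holds part of its circRNAs. The mapped reads may carry how well linear RNA was removed in each library, which was not tested. The fitted log2 fold change of the SETD2 total was 1.33 (standard error 0.25) after TMM normalization and 0.57 (standard error 0.49) with mapped reads as library sizes. Without Young_D30 replicate 1 it was 1.45 after TMM. In whole testis, fewer cells of a type and less RNA per cell cannot be told apart.

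**Figure D3:**
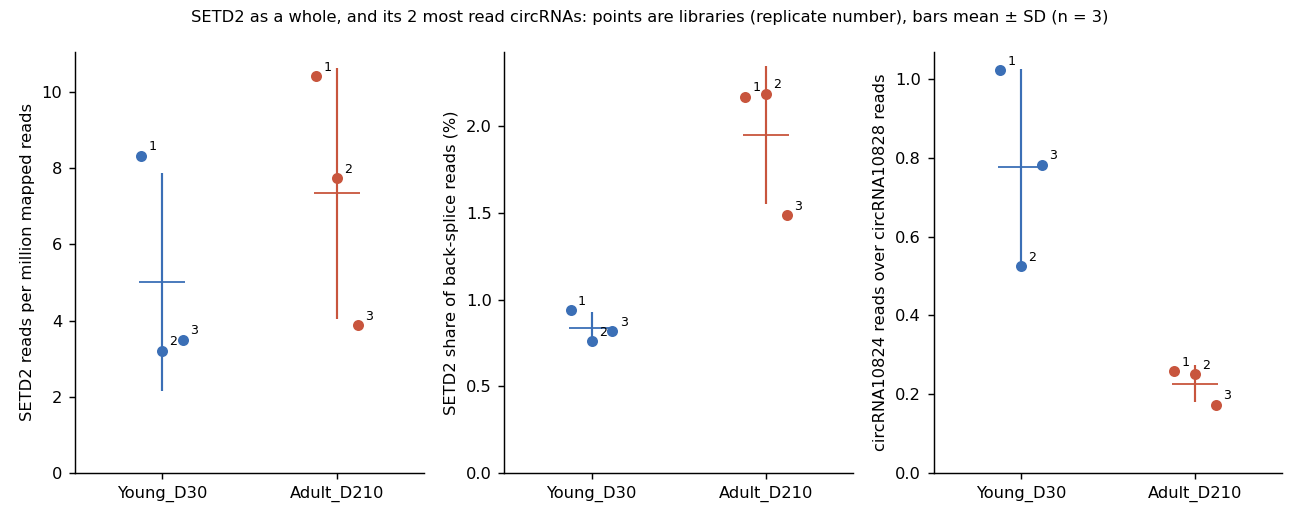
SETD2 reads per 1000000 mapped reads (left), SETD2 reads as a percentage of back-splice reads (middle) and circRNA10824 reads over circRNA10828 reads (right), with a numbered point per library and bars for mean ± SD over n = 3. The groups overlap on the left, where Young_D30 replicate 1 is at 8.32, and are apart in the middle and on the right.

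Of the 17 tested SETD2 circRNAs, 5 were called higher in Adult_D210 and 0 lower by edgeR's quasi-likelihood test after TMM, where a call asks for an adjusted p under 0.05 together with a change of 1 log2 unit or more. Over all 1341 circRNAs tested, 3.43% were called higher and 4.85% lower, and since SETD2 was put forward on this contrast nothing is read from its share. The log2 fold changes were 1.28 (standard error 0.29) for circRNA10828, 1.46 (0.43) for circRNA10826, 2.21 (0.50) for circRNA10823, 2.65 (0.72) for circRNA10825 and 2.58 (0.72) for circRNA10830. All but circRNA10826 start at the 49 nt exon. In SRPBM, 3 of the 17 had every adult library above every young library, against 3.73% of the 1341, and 0 of the 17 had the reverse order, against 23.5%.

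The calls did not hold on the other scale. With mapped reads as library sizes, 0 of the 17 were called by edgeR's quasi-likelihood test, where 0.671% of all tested were called higher and 5.07% lower, and 3 of the 17 had an unadjusted p under 0.05, as 26% of all tested did. The log2 fold changes of the 5 were then 0.80 for circRNA10828, 0.94 for circRNA10826, 1.73 for circRNA10823, 2.26 for circRNA10825 and 2.09 for circRNA10830. DESeq2, with its own size factors, called 5 of the 17 higher, against 3.36% of all tested. The change of scale moved the median log2 fold change of all circRNAs tested from −0.42 to −0.90, and that of the 17 from 1.0 to 0.50. Leaving out Young_D30 replicate 1 moved both medians the other way after TMM, to −0.05 over the 1046 circRNAs then tested and to 1.59 over the 13 of SETD2. On both scales 14 of the 17 lay above the median of all circRNAs tested.

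Single libraries also decided calls. The number of SETD2 circRNAs called higher by edgeR after TMM was 3 without Young_D30 replicate 1 (3.63% of all tested), 3 without replicate 2 (2.61%) and 1 without replicate 3 (1.23%). It was 1 without Adult_D210 replicate 1 (1.4%), 1 without replicate 2 (2.13%) and 4 without replicate 3 (2.65%). Among the 6 fits that each left out a library, circRNA10823 was called in 5, circRNA10828 in 4, circRNA10825 and circRNA10826 in 2 each and circRNA10830 in 0. The log2 fold change of each of these 5 stayed above 1 in those fits, from 1.17 to 3.27.

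The sign of the log2 fold change was not the same for all isoforms, although none of those below 0 was called. After TMM, 14 of the 17 log2 fold changes were above 0 and 3 below, and with mapped reads 11 were above and 6 below. The sign changed with the scale for circRNA10820, circRNA10827 and circRNA10835, each with few reads, and stayed negative on both for circRNA10824, circRNA10821 and circRNA10837. Of these, circRNA10824 alone is well read, and its log2 fold change was −0.45 (standard error 0.41) after TMM and −0.98 (standard error 0.59) with mapped reads. Neither value passed the call, and without Young_D30 replicate 1 it was −0.02, so a change of its own level was not shown.

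**Figure D4:**
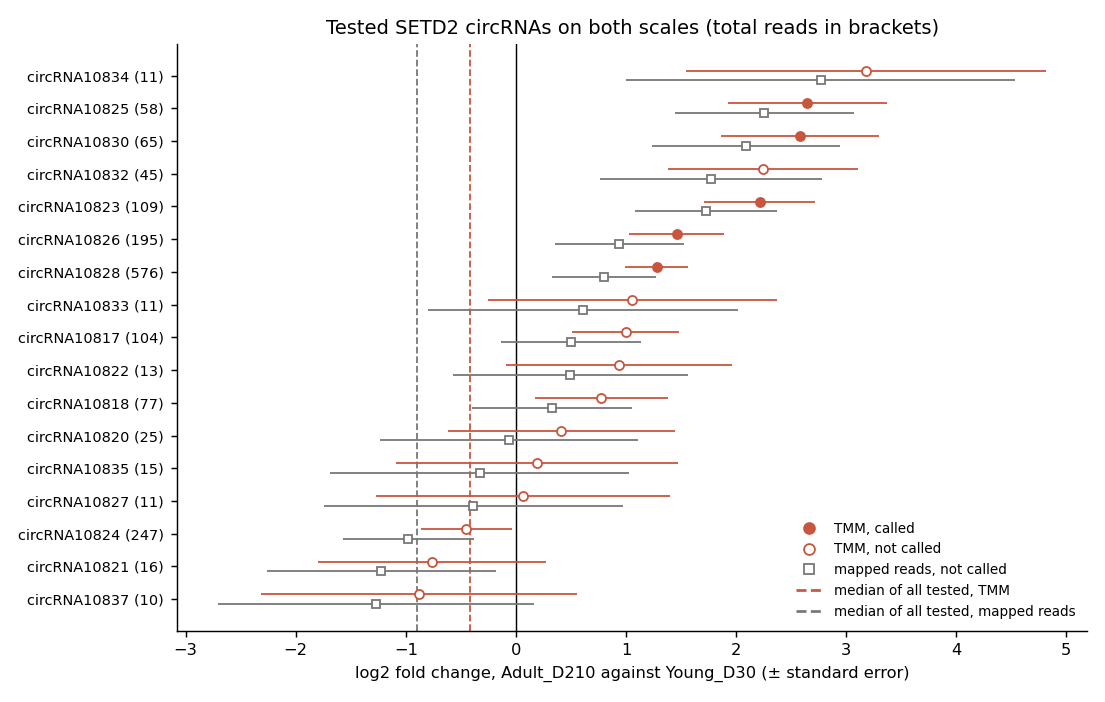
Log2 fold change of Adult_D210 against Young_D30 (x axis) with its standard error for the 17 tested SETD2 circRNAs after TMM (circles, filled where called) and with mapped reads as library sizes (squares), with dashed lines at the medians of all circRNAs tested, −0.42 and −0.90. The squares lie to the left of the circles throughout, and circRNA10824 is below 0 on both scales.

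A ratio of circRNAs within a library does not depend on the scaling. The reads of circRNA10824 over those of circRNA10828 were 1.02, 0.525 and 0.783 in Young_D30 and 0.258, 0.250 and 0.173 in Adult_D210. The lowest young library was above the highest adult library, at 0.777 ± 0.249 (SD, n = 3) and 0.227 ± 0.0469 (SD, n = 3). This pair was singled out after its values were seen, and no test was made of the ratio.

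Isoform usage, the change of each circRNA relative to the others of its host, was fitted over 1105 circRNAs of 265 hosts with edgeR's diffSpliceDGE. At an adjusted p under 0.05, 0 of the 17 SETD2 circRNAs passed, where 0.181% of all circRNAs did. At an unadjusted p under 0.05 by diffSpliceDGE there were 4 of the 17 (1 in the older form of the fit), against 7.33% of all circRNAs. The results of both forms were known before the one reported here was settled on for usage. The lowest adjusted p by diffSpliceDGE was 0.0791 for circRNA10824, at a relative log2 fold change of −1.53, and its share was lower in 3 of 3 adult libraries than in any young library. That adjusted p was 0.0458 when at least 20 reads were asked for and 0.0499 among exonic circRNAs alone, 0.257 without Young_D30 replicate 1, and up to 0.438 over the other alternatives of diffSpliceDGE. Tested as a host by diffSpliceDGE, SETD2 had an adjusted p of 0.0564 and did not pass, as 1.89% of the hosts did.

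Within each library, circRNA10828 was the most read SETD2 circRNA except in Young_D30 replicate 1, where circRNA10824 had 88 reads against 86. Its share of the SETD2 reads was 27.7% (exact Clopper-Pearson 95% interval 22.8 to 33.0), 43.6% (35.2 to 52.2) and 30.3% (23.1 to 38.2) in Young_D30. In Adult_D210 its share was 38.7% (34.4 to 43.0), 33.2% (28.0 to 38.7) and 42.9% (35.7 to 50.2). The groups overlapped, at 33.8% ± 8.54 and 38.3% ± 4.83 (SD, n = 3 each), a difference smaller than the spread between libraries (exact permutation test, two-sided p = 0.5, the smallest possible being 0.1).

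The share of circRNA10824 was 28.3% (Clopper-Pearson 95% interval 23.4 to 33.7), 22.9% (16.2 to 30.7) and 23.7% (17.2 to 31.3) in Young_D30. In Adult_D210 it was 9.96% (7.51 to 12.9), 8.31% (5.50 to 11.9) and 7.41% (4.11 to 12.1). Each young interval lay above each adult interval, and the means were 24.9% ± 2.93 and 8.56% ± 1.30 (SD, n = 3 each). The difference was −16.4 percentage points, and −14.7 without Young_D30 replicate 1. The exact permutation test gave two-sided p = 0.1, the smallest possible, for a circRNA singled out after its values were seen. These intervals cover counting error only, as the reads carry no molecular identifiers and copies of a molecule count more than once. The share fell from that of the leading pair in Young_D30 to behind circRNA10826 in all 3 adult libraries and behind circRNA10823 in replicates 2 and 3.

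Of the 17 tested circRNAs, the shares of 7 did not overlap between the groups, against 19.6% of the 1030 circRNAs for which shares could be formed in every library. They were higher in Adult_D210 for circRNA10823, circRNA10825, circRNA10826 and circRNA10830, and lower for circRNA10824, circRNA10821 and circRNA10817. The groups of circRNA10826 part by a hair (10.71% against 10.74%), and circRNA10821 rests on 1 to 4 reads per library, so little can be read from either. Shares of 1 library add up to a whole, so a lower share of circRNA10824 raises the others, and higher shares of others lower its own. As a share of all back-splice reads, the groups differed by −0.0415 percentage points for circRNA10824 and by 0.456 for circRNA10828. Which of these moved the shares within SETD2 was not tested. The share of circRNA10823 was 3.54%, 2.86% and 5.26% in Young_D30 and 7.42%, 9.58% and 9.52% in Adult_D210, whereas that of circRNA10817 was nearly level, 6.43% to 6.75% in Young_D30 and 6.25% to 6.39% in Adult_D210. For circRNA10830, the Clopper-Pearson intervals go up to 4.58%, 2.60% and 6.60% in Young_D30, the 2.60% standing for 0 of 140 reads, and start at 3.34%, 2.71% and 3.71% in Adult_D210, so those of the groups overlap although its shares do not. Of the 7, circRNA10824 alone had intervals that lay apart. Those of circRNA10823 went up to 10.1% in Young_D30 and started at 5.31% in Adult_D210. Those of circRNA10825 went up to 7.15% in Young_D30 and started at 1.50% in Adult_D210.

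Grouped by acceptor, which was done after the values were seen, the 5 circles of the 49 nt exon held 36.7%, 50.0% and 42.1% of the SETD2 reads in Young_D30 and 58.2%, 53.7% and 63.0% in Adult_D210. The 3 circles of the 670 nt exon held 39.5%, 34.3% and 34.2% in Young_D30 and 21.5%, 27.2% and 19.6% in Adult_D210. Neither acceptor had overlap between the groups. Of the 455 reads at the acceptor of the 670 nt exon, 247 were of circRNA10824, so the lower values there largely restate its share. From the same acceptor, the shares of circRNA10826 were higher in Adult_D210, by a hair, and those of circRNA10822 overlapped. The 2 circles of the 140 nt exon held 8.99% to 15.8% over the 6 libraries, with overlap. Among the 6 other acceptors, that of the 135 nt exon (23 reads, 1.97% to 2.86% in Young_D30 and 0.391% to 1.60% in Adult_D210) and the one at 33222430 (15 reads, 1.29% to 2.86% and 0% to 0.977%) were lower without overlap, on few reads, and 4 overlapped. Of the 8 acceptors with at least 10 reads 4 thus did not overlap, against 19.4% of the 656 such acceptors in hosts with 2 or more of them.

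Grouped by donor, 3 of the 9 with at least 10 reads did not overlap, against 21.3% of the 743 such donors in hosts with 2 or more of them. The donor of the 670 nt exon, which ends the most SETD2 reads, overlapped, at 39.9%, 54.3% and 41.4% in Young_D30 and 50.8%, 52.1% and 55.0% in Adult_D210. That of the 135 nt exon was lower in Adult_D210, at 28.6%, 25.7% and 26.3% against 15.0%, 13.4% and 11.1%. Of its 305 reads, 247 were of circRNA10824, and the share of circRNA10825, which has the same donor, was higher in Adult_D210. The other 2 donors without overlap, of the 81 nt and the 184 nt exon, each belong to a single circRNA, circRNA10817 and circRNA10830.

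**Figure D5:**
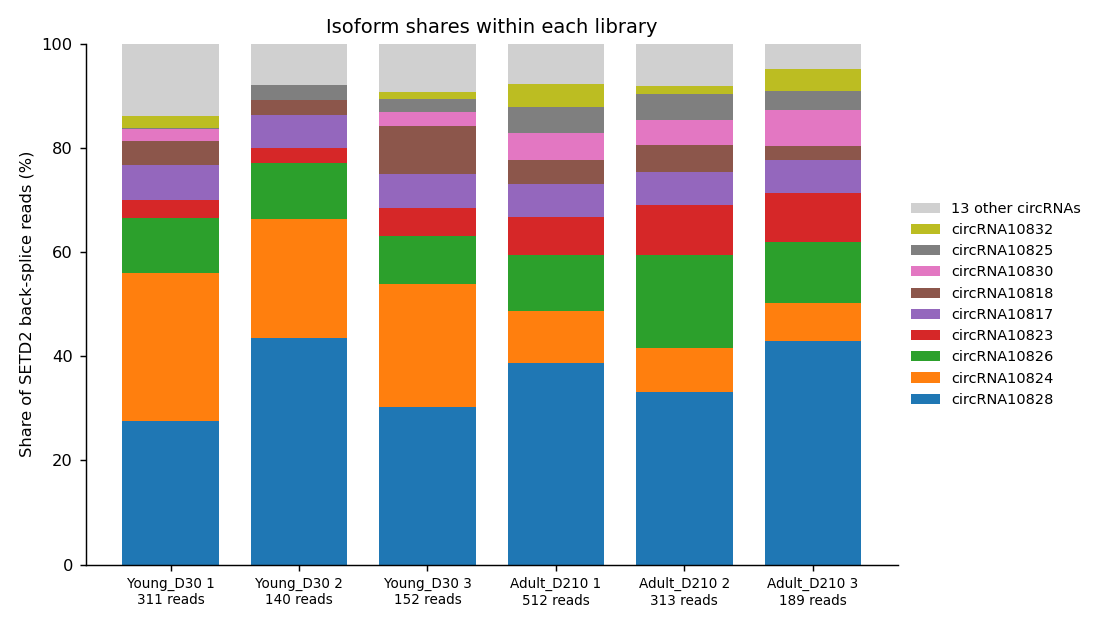
Stacked shares (y axis, percent) of the 9 most read SETD2 circRNAs among all SETD2 back-splice reads of each library, the 13 others in grey, with the SETD2 reads under each bar. The circRNA10824 segment spans 22.9% to 28.3% in the Young_D30 bars and 7.41% to 9.96% in the Adult_D210 bars.

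The lists of genes around lysine methylation hold 67 names, of which 20 were hosts in the table, with identifiers translated to symbols where a gene name table gave one. Of their 26 tested circRNAs, 5 were called higher by edgeR after TMM, all of SETD2, and 0 lower. Outside SETD2, 0 of 9 tested circRNAs were called, with a median log2 fold change of −1.04, against −0.42 over all circRNAs tested. Of these 9, 4 were of SETD5, so the median leans on that host. SETD3, with 3350 of the 3655 reads outside SETD2, went the other way. The log2 fold change of its total was 0.94 (standard error 0.23) after TMM and 0.17 (standard error 0.48) with mapped reads. Without Young_D30 replicate 1, 3 of SETD2 were called higher and 1 of the 9, circRNA11153 of SETD5, was called lower (log2 fold change −2.64), as were 3.44% of all circRNAs in that fit. The middle value of the 9 was then −0.45 (circRNA10208 of SETD7), against a median of −0.05 over all circRNAs tested. In that fit circRNA1183 of SETD3 was at 0.96 with an adjusted p of 0.0427 by edgeR, short of the limit of 1 log2 unit. With mapped reads as library sizes, 0 of the 26 were called.

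Under a gene symbol, SETD2 was the only listed H3K36 methyltransferase with exonic circRNAs in the table, which holds part of the circRNAs of the study. NSD3, another enzyme of that mark, had a single intronic circRNA (ciRNA781) with 1 read. Of the H3K36 demethylases, KDM4B had ciRNA222 with 2 reads. Among the readers of the mark, PSIP1, which tethers proteins to chromatin, had ciRNA255 with 12, 5 and 2 reads in Young_D30 and 3, 2 and 3 in Adult_D210. The readers GLYR1 (ciRNA150, 4 reads), BRPF1 (ciRNA1543, 2 reads), ZCWPW1 (ciRNA564, 2 reads) and ZMYND11 (ciRNA1099, 1 read) had intronic circRNAs at the limit of detection, and the 4 listed partners of SETD2 at RNA polymerase II had none.

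Of the other SET domain and lysine methyltransferases, SETD3, which methylates a histidine of actin, had circRNA1183 with 727, 288 and 433 reads in Young_D30 and 898, 580 and 388 in Adult_D210. Its log2 fold change was 0.70 (standard error 0.23) after TMM and 0.17 with mapped reads. SETD5 had circRNA11153 with 8, 15 and 20 reads in Young_D30 and 3, 3 and 1 in Adult_D210 (log2 fold change −2.30, standard error 0.78, not called with all 6 libraries). Its host total was lower in every adult library than in any young library per mapped read, as for 29.8% of the 560 hosts with at least 10 reads.

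SETD4 had circRNA12123 with 44, 6 and 9 reads against 14, 5 and 3, and SETD7 had circRNA10208 with 1, 6 and 7 against 3, 4 and 5. Neither was called. The remaining hosts of this list had intronic circRNAs of at most 2 reads each, the most read per host being ciRNA949 of SETD1A, ciRNA1586 of SETD1B, ciRNA1673 of SETDB1, ciRNA1762 of SUV39H2, ciRNA853 of EHMT2, ciRNA1360 of KMT2A, ciRNA1195 of KMT2B and ciRNA905 of KMT2D.

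Among 224 other hosts with at least 100 reads, the pattern most like the SETD2 total over the 6 libraries was that of FANCD2, a DNA crosslink repair gene (Pearson r 0.992 on log2 counts per 1000000 mapped reads). Its circRNAs had 166, 65 and 80 reads in Young_D30 and 295, 177 and 111 in Adult_D210. It was followed by ARL6 (0.962), EML5 (0.946), ZC3H14 (0.943) and PSMD2 (0.942), and the lowest values were those of PTBP1 (−0.810) and the host ENSSSCG00000028430 (−0.762). The 6 points share library depth, the high yield of Young_D30 replicate 1 and the age groups, so these values only describe the libraries.

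The nearest hosts on the chromosome with circRNAs in the table were SCAP and SMARCC1. SCAP, a sterol sensor, had 25, 16 and 16 reads in Young_D30 and 9, 1 and 10 in Adult_D210. SMARCC1, a chromatin remodelling subunit, had 1129, 671 and 613 reads in Young_D30 and 544, 376 and 293 in Adult_D210. Per mapped read, every adult library lay below every young library for both, as for 29.8% of the 560 hosts, whereas the SETD2 groups overlapped on that scale. After TMM the log2 fold changes of their totals were −0.91 (standard error 0.65) and −0.40 (standard error 0.21), with a median of −0.31 over the totals of the 560 hosts. These hosts were picked by position after the data were seen.

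Of the hosts that mark testicular cell types, only the spermatid set parted by age per mapped read. As a share of back-splice reads, the spermatid and Leydig sets did. Of 14 spermatid markers, 3 were hosts in the table, and their summed reads were 34, 30 and 33 in Young_D30 and 265, 84 and 75 in Adult_D210. Of these reads, 385 were from SLC9B1, a sperm sodium proton exchanger, 135 from IQCG and 1 from ACRV1. Of 10 spermatocyte markers, 2 were present, with 28, 13 and 9 reads against 24, 2 and 1, nearly all from MOV10L1. Each adult library was above each young library per mapped read for the spermatid markers, and the groups overlapped for the spermatocyte markers. These markers were chosen with earlier results of these data known, so nothing is read from the split by age.

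Defining spermatid markers such as PRM1, PRM2, TNP1, TNP2 and AKAP4, and SYCP1, SYCP3, DMC1 and SPO11 of the spermatocytes, have no circRNA listed under their symbols, which is not a measured 0. For the somatic cells the table holds little. Leydig cell markers (2 of 7, mostly CYP17A1) had 12, 6 and 4 reads in Young_D30 and 12, 14 and 16 in Adult_D210, with overlap per mapped read but none as a share of back-splice reads (0.0215% to 0.0363% against 0.0509% to 0.126%), and Sertoli cell markers (2 of 9, GATA4 and TF) had 14, 0 and 1 against 0 in each adult library, with SOX9, AMH and WT1 not listed. Spermatogonia were represented by KIT with 4 reads, all in Young_D30 replicate 3, with ZBTB16, GFRA1 and UCHL1 not listed, and peritubular cells and macrophages by ACTA2 and CD163 with 1 read each. Of the 3 endothelial markers, 0 were hosts. A host without a circRNA in the table says nothing about its mRNA, and the part of cell composition in the SETD2 values was not tested.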

How the data were processed

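The values are those the authors deposited, made with Cutadapt, TopHat2, TopHat-Fusion and CIRCExplorer2. For each library they are a raw count of reads at every back-splice junction, and SRPBM, a signal that the authors derived from the count by mapped reads and a read length of 150. Dividing counts by SRPBM gave back the mapped reads of each library. The per-sample columns left unused numbered 0. Counts were compared with edgeR 4.0.16 in R 4.3.3, using circRNAs of 10 or more reads in all, TMM, the quasi-likelihood fit of edgeR 4 with robust dispersions, and Benjamini-Hochberg adjustment over all circRNAs tested. Host totals were fitted likewise, and diffSpliceDGE gave isoform usage. The code was tested on simulated data. Replicate pairs differed by more than counting noise (chi-square over degrees of freedom 3.87 to 4.97), and each library was taken as 1 boar. Single values used exact permutation tests, and shares exact Clopper-Pearson intervals (Python 3.11.15, SciPy 1.17.1). Alternatives included DESeq2 1.42.0.

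The members, the gene lists and the markers were chosen with earlier results of these data known. SETD2 circRNAs with at least 10 reads, and of the lists each called circRNA and the most read per host, are named, with the 5 hosts most like SETD2 and the 2 least like it. The other 5 SETD2 circRNAs, which that rule gave by range only, are listed too. Of 482 hosts listed by identifier, 284 were translated to a symbol. Likeness used a prior of 2 reads.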

Additional observations from a re-analysis of the deposited data

How the results depend on the processing

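The number of SETD2 circRNAs called, 5 in the main comparison, was 0 with mapped reads as library sizes and 1 to 4 when a library was left out. Over all the lysine methylation lists it was 5, 0 with mapped reads and 1 to 4 without a library. Of the 4 without Young_D30 replicate 1, 3 were of SETD2 and higher, and 1 was of SETD5 and lower. For SETD2 alone, DESeq2, no TMM, the other filters, no fold change limit, edgeR's exact test and the older quasi-likelihood form gave 4 or 5. The calls over all circRNAs, 111 (46 higher), were 77 (9 higher) with mapped reads and 39 to 81 without a library. The SETD2 host total had a log2 fold change of 0.57 and no longer passed with mapped reads. Isoform usage gave 1 SETD2 circRNA, circRNA10824, with at least 20 reads and with exonic circRNAs alone, against 0. The older quasi-likelihood form was an alternative chosen after seeing the data, and for usage the main form was fixed with the results of both known. The share of circRNA10828 differed by 4.42 percentage points between the groups (1.33 to 9.29 without a library), and by 0.456 as a share of all back-splice reads, which is another quantity. That of circRNA10824 differed by −16.4 (−17.4 to −14.7 without a library), and by −0.0415 as a share of all back-splice reads. Of the 5 hosts most like SETD2, 2 remained with Spearman's rho and 2 per back-splice read. The cause of these changes was not tested.

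After leaving out a library or changing the scale, log2 fold changes turned negative for circRNA10820 (−0.06 with mapped reads, −0.69 to 1.59 when a library was left out), circRNA10827 (−0.39 with mapped reads, −0.38 to 0.53 in the 2 fits without a library that kept it) and circRNA10835 (−0.33 with mapped reads, −0.27 without Young_D30 replicate 2, −0.99 to 1.03 in the 5 fits without a library that kept it, which leaves out the fit without Young_D30 replicate 1), none of them called.

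With the replicate number as a block, 1 SETD2 circRNA was called and 33 over all circRNAs, and the host total (1.32) and usage (0) kept their side of the threshold. No pairing of the libraries by replicate number was seen, since deviations from the group means correlated at 0.051, −0.015 and −0.031 for equal numbers. Not every library correlated best with its own number, although replicate 1 of each group did. With 3 libraries per group, such correlations cannot exclude a pairing or a shared batch.

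Depth limits these results, with 140 to 512 SETD2 reads per library and only 17 of 22 circRNAs at 10 reads or more. The table holds no SETD2 circRNA absent from Young_D30 replicate 1. Groups of 3 libraries cannot reach a permutation p under 0.1.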
